A study of Mus musculus with 2 samples.

Results

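Upk1b, Dlgap1, Klk8, Spint1, P3h2, Adgrg1, Npnt, Csmd3, Cacna1a and Rtn1 are 10 of the 31053 features counted in sorted mouse brain microglia, and they stood among the genes with far fewer transcripts in a library labelled IRF8KO than in a wild-type (WT) library. They were chosen by symbol because an earlier analysis of the same libraries had placed them near the bottom of that comparison. Their fold differences between the libraries are therefore a description of how they were picked. What the choice did not use is how their UMIs lay among cells of different Apoe content in the library labelled IRF8KO, and how they varied from cell to cell within WT. Transcripts were counted by unique molecular identifiers (UMIs), short tags that keep copies of a transcript made during amplification from being counted again. Levels are in CPM, the share of a gene in all UMIs of the summed cells, scaled to a total of 1000000.

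The samples were FACS-sorted microglia, isolated without enzymes from 3-month-old female C57BL/6 mice that received no treatment. Each library came from 1 pool of 3 mice of 1 genotype and there was 1 library per group, so no difference has a replicate check, no test of genotype was possible and no p-value is given. Group names come from the titles. For the sample whose title says IRF8KO the genotype field says WT, and the knockout allele is not named, so it is called the library labelled IRF8KO. Intervals are exact 95% intervals for counting error only, since cells of 1 pool are not replicates.

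Microglia are the resident macrophages of the brain. Their identity rests on transcription factors that include PU.1, which opens and marks enhancers in myeloid cells, IRF8, which binds DNA together with PU.1 at composite sites, and SALL1, a zinc-finger repressor that among brain macrophages is typical of microglia. Apoe, a lipid carrier, is low in resting microglia and high in activated microglia and in macrophages of the brain borders. The 10 genes do not belong to a single pathway, and "surface genes" describes only some of them. Upk1b encodes a tetraspanin-family membrane protein, Spint1 a membrane-bound inhibitor of serine proteases, Adgrg1 the adhesion receptor GPR56, Csmd3 a large transmembrane protein with CUB and sushi domains, and Cacna1a the pore of the P/Q-type calcium channel. Klk8 (neuropsin) is a secreted serine protease and Npnt (nephronectin) an extracellular matrix protein that binds integrins. P3h2, a collagen prolyl hydroxylase, and Rtn1, a reticulon, lie in the endoplasmic reticulum, and Dlgap1 is a scaffold protein on the cytoplasmic side of neuronal synapses.

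The WT library kept 3304 cells with 18543061 UMIs, a median of 3204.5 UMIs per cell. The library labelled IRF8KO kept 5105 cells, of which 98 with at least 2% of their UMIs in the neutrophil genes Camp, Ngp, S100a8, S100a9, Lcn2 and Ltf were set aside. The remaining 5007 cells held 18980263 UMIs, a median of 2933 per cell. No studied cell lay between 1 and 2% of these genes, and 1 cell set aside lay between 2 and 4%. Of the cell barcodes, 5 occurred in both libraries. Irf8 itself stood at 794 CPM in WT and 669 CPM in the library labelled IRF8KO. Counts of transcript ends cannot show whether the protein was lost. The 12 microglia markers were all above 10 CPM in at least 1 library, and 6 were at least 2-fold lower in the library labelled IRF8KO. Of all 8859 genes with 10 CPM in either library, 9.28% were that low. Any lower value was seen in 10 of the 12 markers and in 74.9% of all genes. The summed level of 11 border macrophage markers was 265 CPM in WT and 3376 CPM in the library labelled IRF8KO. There Ms4a7, a defining marker with 0 UMIs in WT, reached 649 CPM, and Pf4 reached 1462 CPM against 0.485 CPM. Stab1 gave 251 CPM of the WT sum and stood at 524 CPM in the library labelled IRF8KO. The 6 markers with 10 CPM in either library were all at least 2-fold higher there, beside 5.61% of all genes. Folr2 went the other way, from 32 to 4 UMIs. Lyve1 had 0 and 2 UMIs, and Cd209f had 0 in both libraries. The monocyte list also summed higher, at 12.6 and 218 CPM, as did the full neutrophil list, at 2.48 and 54.4 CPM. Other lists summed lower, WT first: 8 astrocyte markers at 217 and 33.4 CPM, 8 lymphocyte markers at 49.1 and 4.48 CPM, nearly all of it Cd79b (49.0 and 4.21 CPM), 8 endothelial and mural markers at 60.7 and 27.3 CPM, with Pecam1 at 52.0 and 3.64 CPM but Flt1 at 0.485 and 19.2 CPM, and 10 epithelial and meningeal markers at 30.0 and 0.211 CPM. Of the last list 7 were at 0 in WT and Ttr alone gave 29.7 CPM, and of the astrocyte list Slc1a3 gave 212 CPM. Oligodendrocyte markers stood at 72.9 and 81.9 CPM. The part of these cell type markers in the differences below was not tested.

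Several of the 10 genes are best known from neurons, so neuronal markers were examined in the same cells. The 12 neuronal markers summed to 8.63 CPM in WT and 9.59 CPM in the library labelled IRF8KO, and Slc17a7 and Tubb3 were at 0 in WT. A neuronal marker UMI occurred in 128 WT cells. Without those cells the WT level of Dlgap1 was 173 CPM instead of 176 CPM, that of Cacna1a 131 CPM in both cases, that of Rtn1 105 CPM instead of 107 CPM, and that of Csmd3 193 CPM instead of 186 CPM. The WT levels were thus about as high in cells with no UMI of these neuronal markers.

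Start-site sequences are shown for 4 of the genes, because the members were low together and the search below was for letters that PU.1, IRF8 with PU.1, or AP-1 are known to bind. They come from RefSeq on GRCm38.p6, in which 6 of the 10 genes matched with 11 start windows, each from 250 bases before to 50 bases after a start. Where a gene had several windows, the window with most motif matches was chosen for printing, the first if tied. The windows printed below run from 250 bases before to 20 after the start on the plus strand, 5′ to 3′, with motif matches in capitals. They are Klk8 at chr7:43797327-43797596, Spint1 at chr2:119237110-119237379, Adgrg1 at chr8:94984149-94984418, a start within the gene, and Dlgap1 at chr17:69968823-69969092.
Klk8: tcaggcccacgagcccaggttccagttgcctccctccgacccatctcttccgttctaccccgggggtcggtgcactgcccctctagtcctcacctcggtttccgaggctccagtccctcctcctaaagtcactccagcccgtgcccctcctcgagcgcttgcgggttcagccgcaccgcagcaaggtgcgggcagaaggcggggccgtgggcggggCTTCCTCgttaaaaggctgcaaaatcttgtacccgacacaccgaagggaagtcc
Spint1: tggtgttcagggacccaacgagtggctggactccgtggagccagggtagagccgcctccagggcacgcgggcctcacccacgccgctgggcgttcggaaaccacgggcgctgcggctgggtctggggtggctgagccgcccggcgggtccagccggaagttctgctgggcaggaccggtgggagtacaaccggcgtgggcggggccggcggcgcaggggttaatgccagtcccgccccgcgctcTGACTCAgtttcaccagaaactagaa
Adgrg1: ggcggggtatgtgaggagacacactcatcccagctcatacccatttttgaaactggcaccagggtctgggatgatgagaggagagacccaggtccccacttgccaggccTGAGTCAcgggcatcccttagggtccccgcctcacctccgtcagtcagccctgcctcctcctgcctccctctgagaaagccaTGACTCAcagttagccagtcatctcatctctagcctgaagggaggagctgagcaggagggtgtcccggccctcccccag
Dlgap1: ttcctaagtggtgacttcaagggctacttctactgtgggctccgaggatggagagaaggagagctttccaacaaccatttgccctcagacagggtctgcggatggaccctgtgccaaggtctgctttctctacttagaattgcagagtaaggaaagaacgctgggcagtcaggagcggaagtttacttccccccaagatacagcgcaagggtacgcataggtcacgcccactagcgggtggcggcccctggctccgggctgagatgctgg

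On both strands, 4 letter patterns were searched in the 300-base windows. The ETS-IRF composite, GGAA and GAAA parted by any 2 bases, occurred in 2.72% of 32851 mouse windows of that length and the interferon-stimulated response element core, a pair of GAAA parted in the same way, in 3.44%, and neither occurred in any of the 11 windows. The PU.1 core GAGGAAG, whose GGAA it shares with the composite, occurred in 13.6% of all windows. It was found in the Klk8 window, on the opposite strand and so printed as CTTCCTC, 34 bases before the start, and in 1 of the 3 Rtn1 windows. The AP-1 pattern TGANTCA occurred in 7.81% of all windows and in Spint1 as TGACTCA 6 bases before the start. In Adgrg1 it occurred as TGAGTCA and TGACTCA 141 and 59 bases before the internal start. The other Adgrg1 window held no match to any of the 4 patterns. Neither Dlgap1 window and neither Npnt window held a match to any of the 4 patterns. Upk1b, P3h2, Csmd3 and Cacna1a are the other members. These matches describe letters near starts and do not cover the distal enhancers where such factors often bind.

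All 10 genes were clearly present in WT microglia, at 49.0 to 333 CPM, and each was at least 16-fold lower in the library labelled IRF8KO. Of the 8859 genes that reached 10 CPM in either library, 0.948% were that low, which says nothing about the 10 since this contrast chose them. Their median log2 ratio was -9.27, with medians of the lower and upper interval bounds at -11.93 and -7.23. The median of all 8859 genes was -0.28. Together the 10 genes gave 24803 WT UMIs against 468 in the library labelled IRF8KO. The difference was uneven: 6 genes kept at most 3 UMIs each, 12 in all against 10762 in WT, while Adgrg1, Cacna1a, Csmd3 and Rtn1 held 456 of the 468.

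**Figure D1:**
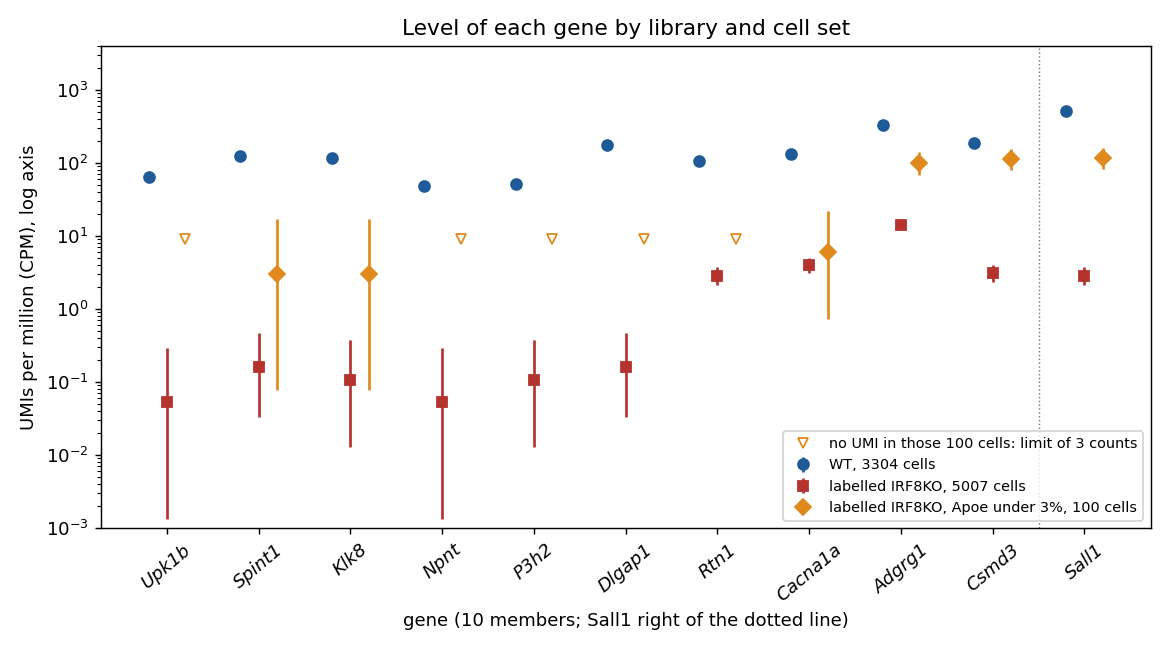
Level of each of the 10 genes and of Sall1, in CPM on a log axis, in 3304 WT cells, in 5007 cells of the library labelled IRF8KO and in its 100 cells with Apoe under 3% of UMIs. Bars are exact 95% Poisson intervals. Open triangles mark 0 UMIs in the 100 cells and are drawn at 3 counts (9.10 CPM), where the exact upper bound is 11.2 CPM. Only Adgrg1, Csmd3 and Sall1 sit near 100 CPM in the 100 cells (100.1, 112 and 115 CPM).

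Among the proteins anchored in the plasma membrane, Upk1b (chr16:38773184-38800328, minus strand, GRCm38) had 1204 WT UMIs, 64.9 CPM, against 1 UMI in the library labelled IRF8KO, with a ratio on the log2 scale of -10.27 (-15.57 to -7.79). Spint1 (chr2:119237362-119249527, plus strand) had 2278 UMIs, 123 CPM, against 3 UMIs, a ratio of -9.60 (-11.88 to -8.05). St14, the membrane protease matriptase that the Spint1 product inhibits, went the other way, from 10.7 to 20.4 CPM. The membrane inhibitor was thus nearly absent in a library where its target protease was still counted.

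The secreted and matrix genes were as low. Klk8 (chr7:43797577-43803826, plus strand) had 2152 WT UMIs, 116 CPM, against 2 UMIs, a ratio of -10.11 (-13.15 to -8.25). Npnt (chr3:132881745-132950291, minus strand) had 909 UMIs, 49.0 CPM, against 1 UMI, a ratio of -9.86 (-15.17 to -7.38). The integrin list was mixed. Of its 7 genes with 10 CPM in either library, 1 was at least 2-fold lower and 3 at least 2-fold higher. All genes gave 9.28% and 5.61%. Itgb5, the most abundant WT member of the list, went from 1212 to 860 CPM, and Itgb3 from 37.8 to 12.6 CPM. Itga4, which recognises fibronectin and VCAM1, went from 5.28 to 203 CPM. Itga8, the partner best known for binding nephronectin, had 0 UMIs in both libraries.

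The intracellular genes P3h2 and Dlgap1 completed the group with at most 3 UMIs. P3h2 (chr16:25959288-26105784, minus strand) had 959 WT UMIs, 51.7 CPM, against 2 UMIs, a ratio of -8.94 (-11.99 to -7.08). An antisense gene, Gm4524, overlaps its exons, and the strand setting of the counting is not given in the sources used here. Dlgap1 (chr17:69969073-70821413, plus strand), a gene of 852.3 kb, had 3260 WT UMIs, 176 CPM, against 3 UMIs, a ratio of -10.12 (-12.40 to -8.57). Of the 12 UMIs left over these 6 genes, 4 came from a single cell of 12812 UMIs that held the only Upk1b UMI, 1 of Klk8 and 2 of Spint1, with 1 of Sall1 and 18 of Ms4a7. Apoe made up 5.64% of its UMIs.

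The other 4 genes kept measurable levels. Adgrg1 (chr8:94974751-95014217, plus strand), the receptor GPR56, had 6172 WT UMIs, 333 CPM (325 to 341), against 269 UMIs, 14.2 CPM (12.5 to 15.97). Csmd3 (chr15:47580637-48792063, minus strand), which spans 1211.4 kb with 73 merged exons, went from 3453 UMIs, 186 CPM, to 58 UMIs, 3.06 CPM (2.32 to 3.95). Cacna1a (chr8:84388440-84640246, plus strand) went from 2429 UMIs, 131 CPM, to 75 UMIs, 3.95 CPM (3.11 to 4.95), and an antisense gene, Gm16183, overlaps its exons. Rtn1 (chr12:72211752-72409054, minus strand) went from 1987 UMIs, 107 CPM, to 54 UMIs, 2.85 CPM (2.14 to 3.71). The log2 ratios were -4.55 (-4.74 to -4.38) for Adgrg1, -5.93 (-6.33 to -5.56) for Csmd3, -5.05 (-5.40 to -4.72) for Cacna1a and -5.24 (-5.65 to -4.85) for Rtn1.

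The 98 neutrophil-gene cells give a comparison with cells not known to make these transcripts. They held 842948 UMIs at a median of 7057.5 per cell, with 3 UMIs of Cacna1a, 2 of Adgrg1, 1 of Rtn1 and 0 of the other 7 genes. In CPM this was 3.56 for Cacna1a (0.734 to 10.4), 1.19 for Rtn1 (0.0300 to 6.61) and 2.37 for Adgrg1 (0.287 to 8.57). The cell of 47753 UMIs that lay between 2 and 4% neutrophil genes gave 1 of the Adgrg1 and 1 of the Cacna1a UMIs, and without it Adgrg1 stood at 1.26 CPM (0.0318 to 7.01) and Cacna1a at 2.52 CPM (0.305 to 9.09). The neutrophil-gene cells also held macrophage transcripts, with P2ry12 at 104 CPM and 60.4 CPM without that cell, and Tmem119 at 103 and 64.1 CPM. The remaining levels of Cacna1a and Rtn1 in the studied cells lay within these wide intervals, and a difference was not detectable at this depth. Adgrg1, at 14.2 CPM, lay above its interval with and without the cell. For Csmd3 the 0 UMIs in the neutrophil-gene cells allow up to 4.38 CPM, against 3.06 CPM over all studied cells. The Csmd3 level in the Apoe-low cells described below lay above that limit.

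Whether a WT cell showed a given gene followed its depth. From the shallowest WT cells (1000 to 2000 UMIs) to the deepest (10000 or more), the share of cells with a UMI went from 38.9% to 99.4% for Adgrg1, from 27.7% to 92.9% for Dlgap1 and from 4.91% to 60.7% for Npnt. A UMI of any of the 10 genes occurred in 89.8% of the shallowest and in 338 of 338 of the deepest cells. In the library labelled IRF8KO the same share went from 4.62% to 28.3%, and the 187 deepest cells showed Adgrg1 in 14.97%, Cacna1a in 9.09%, Rtn1 in 6.95% and Csmd3 in 0.535%. For Csmd3 the shallowest cells stood at 0.402%, and the highest share, 1.16%, was in cells of 3000 to 5000 UMIs.

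**Figure D2:**
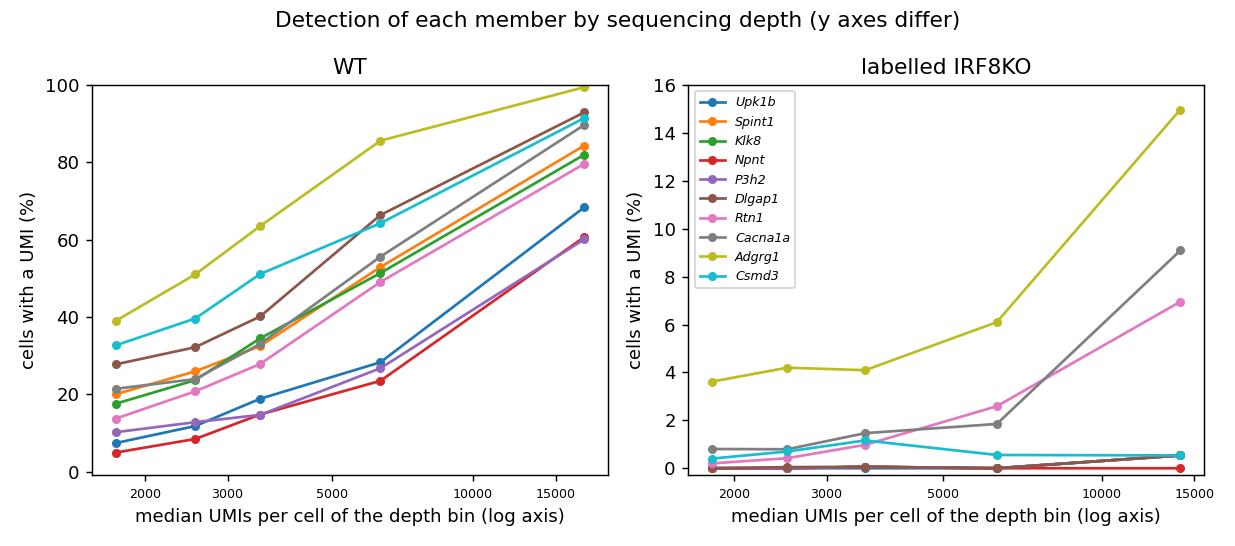
Percent of cells with at least 1 UMI of each gene against the median UMIs per cell of 5 depth bins (log axis), for WT on the left and for the library labelled IRF8KO on the right, with different y axes. Every line climbs in WT, to 99.4% for Adgrg1, while on the right only Adgrg1, Cacna1a and Rtn1 climb past 5%.

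To set depth aside, each cell was thinned at random to 2000 UMIs, leaving out 285 shallower WT cells and 498 of the library labelled IRF8KO. A UMI of any of the 10 genes then occurred in 91.0% of 3019 WT cells and in 4.57% (3.98 to 5.22) of 4509 cells of the library labelled IRF8KO, against 7.53% of its cells without thinning. In 97 thinned neutrophil-gene cells the share was 2.06%. Per gene, the thinned shares in WT ran from 8.68% for P3h2 to 44.1% for Adgrg1. In the library labelled IRF8KO they ran from 0% for Upk1b, Klk8 and Spint1 to 2.91% for Adgrg1. There 0 of 4509 cells allows up to 0.0818%. Of the thinned WT cells, 67.8% held at least 2 of the genes. In the library labelled IRF8KO 8 thinned cells (0.177%) held 2 and no thinned cell held 3.

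The UMIs that remained were not spread evenly over the cells of the library labelled IRF8KO. Nearly all its cells were rich in Apoe, at 88320 CPM against 478 CPM in WT, but 100 cells had under 3% of their UMIs in Apoe. These were 1.997% of the cells and held 1.74% of all UMIs, at a median of 2982 UMIs per cell. They held 74 of the 468 remaining UMIs of the 10 genes, 15.8% (12.6 to 19.4). In WT 3303 of 3304 cells lay under the same limit. Around it, 42 cells lay at 2 to 3% and 108 cells at 3 to 4%, so the limit falls within a continuous range.

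Csmd3 gave 37 and Adgrg1 33 of those 74 UMIs. At the WT level the 100 cells would have held 61.4 UMIs of Csmd3 and 110 of Adgrg1. Csmd3 stood at 112 CPM (79.0 to 155) in 22 of the cells, 1.66-fold below WT (1.20 to 2.36), and these 100 cells held 63.8% (50.1 to 76.0) of all Csmd3 UMIs of the library labelled IRF8KO. Adgrg1 stood at 100.1 CPM (68.9 to 141) in 24 of the cells, 3.32-fold below WT (2.36 to 4.83), and they held 12.3% of its UMIs. Sall1 showed the same concentration, with 38 of its 54 UMIs (70.4%) in 22 of these cells, at 115 CPM against 511 CPM in WT. Csmd3 and Sall1 thus gave over 60% of their UMIs in 1.997% of the cells, and Adgrg1 gave most of its UMIs elsewhere.

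Of the genes with enough remaining UMIs to show where they lay, Cacna1a and Rtn1 gave another picture. Cacna1a had 2 of its 75 UMIs in the 100 cells, 2.67% (0.325 to 9.30), and Rtn1 had 0 of 54, with an upper bound of 6.60%. Both intervals include the 1.74% of all UMIs that these cells held. At the WT level the 100 cells would have held 43.2 UMIs of Cacna1a and 35.3 of Rtn1. The other 6 genes cannot show such a pattern, since they kept only 1 to 3 UMIs each in the whole library, by which they had been chosen. Klk8 and Spint1 had 1 UMI each in the 100 cells, and Upk1b, Dlgap1, P3h2 and Npnt had 0.

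The 36 cells with under 1% Apoe held most of the Csmd3 and Sall1 UMIs of the Apoe-low cells. Csmd3 reached 30 UMIs in 17 cells, 243 CPM (164 to 347), an interval that includes the WT level of 186 CPM. Sall1 reached 34 UMIs in 18 cells, 275 CPM (191 to 385), and Adgrg1 21 UMIs in 16 cells, 170.2 CPM (105 to 260), both below their WT levels. Cacna1a had 1 UMI, 6.19% of its WT level (0.157 to 34.5), and Rtn1 had 0, which bounds it at 27.9% of WT. These 36 cells also had the microglial receptor P2ry12 at 2398 CPM against 3701 CPM in WT, the microglial membrane protein Tmem119 at 899 CPM against 1480 CPM, and the border macrophage marker Ms4a7 at 2 UMIs. Apoe itself stood at 2893 CPM in them, above the 478 CPM of WT. Irf8 stood at 681 CPM (543 to 843), close to the 669 CPM of the whole library labelled IRF8KO.

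In the 64 cells with 1 to 3% Apoe, Csmd3 was at 34.0 CPM, Adgrg1 at 58.2 CPM and Sall1 at 19.4 CPM, Cacna1a gave 1 UMI and Rtn1 gave 0. Ms4a7 stood at 388 CPM and P2ry12 at 791 CPM there. Above 3% Apoe, Csmd3 was at 2.02 CPM or less in each of 4 bins, and Sall1 had 0 UMIs from 9 to 12% and above. Adgrg1 stood at 18.6 CPM (13.6 to 24.8) from 3 to 6%, 12.9 CPM (10.5 to 15.7) from 6 to 9%, 10.8 CPM (8.39 to 13.8) from 9 to 12% and 10.3 CPM (6.65 to 15.2) at 12% or more. Neighbouring intervals overlapped, and those of the last 2 bins reached below the 8.57 CPM upper bound in neutrophil-gene cells. Rtn1 held 2.46 to 3.29 CPM and Cacna1a 2.06 to 4.86 CPM over the same bins.

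**Figure D3:**
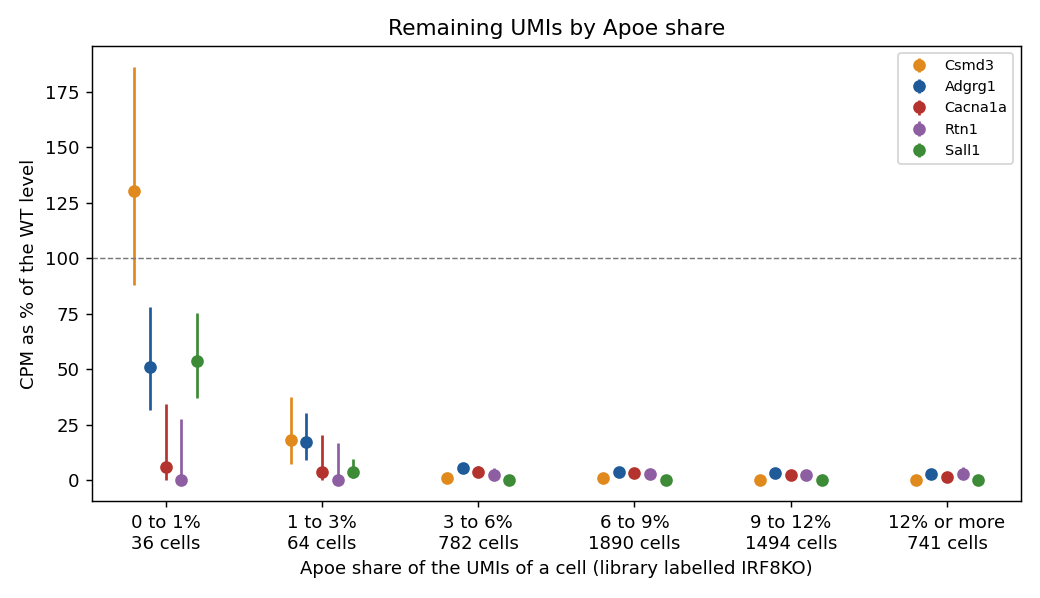
Level of Csmd3, Adgrg1, Cacna1a, Rtn1 and Sall1 as a percent of their WT CPM, in cells of the library labelled IRF8KO split by the Apoe share of their UMIs (6 bins, number of cells under each), with exact 95% Poisson intervals. In the 36 cells under 1% Apoe, Csmd3 stands at 131%, Adgrg1 at 51.1% and Sall1 at 54.0% of WT, Cacna1a at 6.19% and Rtn1 at 0 UMIs.

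Csmd3 and Sall1 UMIs fell in the same cells more often than independence gives. In the library labelled IRF8KO 40 cells had Csmd3, 31 had Sall1 and 15 had both, where independent placement would give 0.248. Within the 100 Apoe-low cells 22 had each and 11 had both, where independence would give 4.84. These expected numbers do not take the Apoe share into account. Of the 36 cells under 1% Apoe 17 had Csmd3 and 18 had Sall1, against 5 and 4 of the 64 cells at 1 to 3%. Whether the 2 genes share cells beyond their common place at low Apoe was not tested. The Apoe-low cells were mixed in their markers: Ccr2, a chemokine receptor of monocytes, gave 87 UMIs in 10 of them. None of the 72 cells with Ccr2 in the whole library held Csmd3 or Sall1. With Csmd3 in 40 and Sall1 in 31 of 5007 cells, 72 cells are too few to show a lack of overlap. Of the border macrophage markers, Ms4a7 occurred in 30 of the 100 cells, 0 of them with Csmd3 or Sall1, and Pf4 in 53, of which 2 held Csmd3 and 4 held Sall1. In the whole library Ms4a7 occurred in 2924 of the 5007 cells and shared 4 with Csmd3 and 6 with Sall1. Pf4 occurred in 3991 cells and shared 15 and 11. Thinned to 2000 UMIs, 84 Apoe-low cells showed Sall1 in 22.6%, Adgrg1 in 20.2%, Csmd3 in 16.7% and Cacna1a in 1.19%. The other 7 genes were in 0%, which allows up to 4.30%.

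Since Sall1 was low in the same library, its relation to the 10 genes was examined among WT cells. Over 3019 WT cells thinned to 2000 UMIs, all from 1 library, Pearson r between the log UMI counts of Sall1 and each gene ran from -0.047 for Cacna1a to 0.044 for Adgrg1, with a median of -0.0037. The 3372 other genes in the same range of WT levels had a median of 0.0030, with 5th and 95th percentiles at -0.030 and 0.035. Adgrg1 lay above that range, Cacna1a below it and the other 8 within it. In unthinned cells, whose totals also vary, the median r of the 10 genes was 0.0858. Correlations this weak in sparse counts are given as a description only.

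**Figure D4:**
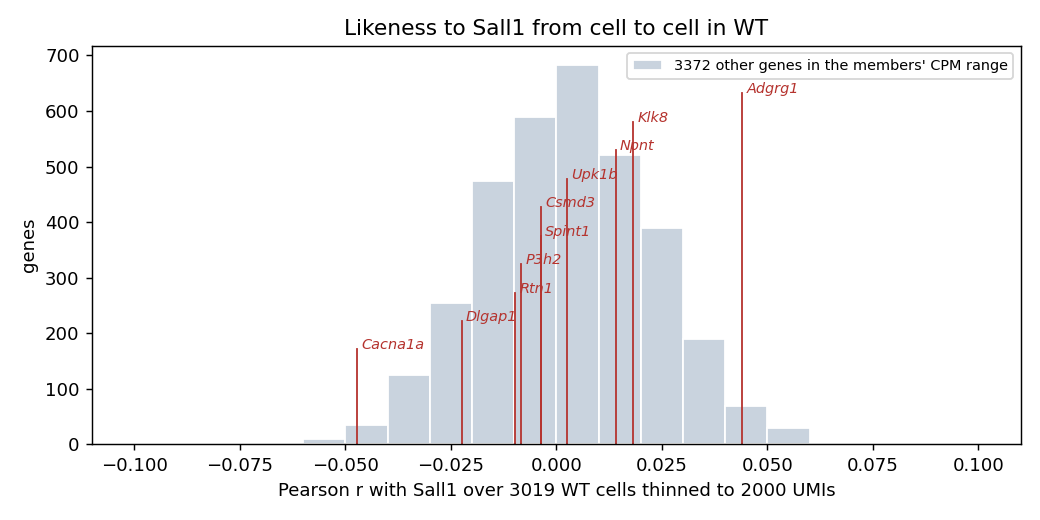
Histogram of Pearson r with Sall1 for 3372 other genes in the members' CPM range over 3019 WT cells thinned to 2000 UMIs, with a vertical line at the value of each of the 10 genes (line heights carry no value). The 10 lines spread over the body of the histogram, from -0.047 for Cacna1a to 0.044 for Adgrg1.

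Detection of the genes in WT cells with and without a Sall1 UMI gave the same picture. Of 1829 thinned cells with Sall1, 45.5% (43.2 to 47.8) held Adgrg1, against 41.9% (39.1 to 44.8) of 1190 without it. Csmd3 was held by 31.4% and 31.8%, Npnt by 9.51% and 7.56%, and Cacna1a by 19.7% and 23.4%. All 10 genes were seen in WT cells in which no Sall1 UMI was caught, but such cells need not lack Sall1. It was caught in 60.6% of the thinned WT cells and in 338 of 338 unthinned WT cells of 10000 or more UMIs. The split therefore cannot separate cells that make Sall1 from cells that do not, and the splits by Irf8 and Apoe below rest on the same thinned counts. The share among cells with Sall1 was 0.845 (Cacna1a) to 1.26 (Npnt) times that among cells without it. Splitting by an Irf8 UMI gave shares of 44.5% and 42.9% for Adgrg1 and 31.4% and 32.0% for Csmd3. Splitting by an Apoe UMI gave 43.7% and 44.3% for Adgrg1 and 29.6% and 32.4% for Csmd3.

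Pairs of the 10 genes also showed little relation from cell to cell in the thinned WT cells. Counts at this depth are sparse: even the highest r of Sall1 with any of 3787 other genes was 0.0873. Values near 0 therefore cannot show whether the 10 genes mark separate groups of WT cells. Over their 45 pairs the median r was -0.0011 (-0.035 to 0.034), and the median ratio of cells with both genes to the number expected from independence was 1.005. The lowest ratio, 0.655, was for P3h2 with Npnt, with 15 cells against 22.9 expected, and the highest, 1.13, for Upk1b with Csmd3, with 119 against 105. The genes most like the sum of the 10 from cell to cell, among those with at least 50 CPM in WT, were Cx3cr1 (r = 0.0765), Csf3r (0.0687), Pnisr (0.0634), P2ry12 (0.0618) and E2f3 (0.0612), over the same 3019 cells of 1 library. Between the libraries their log2 ratios were -2.57 for P2ry12, -1.10 for Cx3cr1, -0.54 for E2f3, -0.24 for Pnisr and -0.08 for Csf3r, so 3 of the 5 lay below the median of all genes. The value of Csf3r changed sign with TMM scaling (0.17).

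Levels of some of the genes differed with depth inside WT. Csmd3 stood at 268 CPM (223 to 319) in cells of 1000 to 2000 UMIs and at 155 CPM (147 to 164) in cells of 10000 or more, and at 411 CPM in barcodes that the filter removed. Other genes stood higher in cells of 10000 or more UMIs than in cells of 2000 to 3000 UMIs, a different starting bin from that used for Csmd3. Npnt went from 38.8 CPM (31.9 to 46.8) to 54.1 CPM (49.1 to 59.4) and Upk1b from 53.7 CPM (45.5 to 63.0) to 70.3 CPM (64.6 to 76.4). Adgrg1 went from 299.7 CPM (280 to 321) to 369 CPM (356 to 382), and Cacna1a from 112 CPM (100.4 to 126) to 144 CPM (135 to 152). In cells of 1000 to 2000 UMIs Cacna1a stood at 154 CPM (121 to 194), so it did not rise from the shallowest cells. Npnt, Upk1b and Adgrg1 stood at 32.2 CPM (18.0 to 53.1), 49.3 CPM (31.3 to 74.0) and 307 CPM (258 to 361) there. Sall1 also stood higher in the deepest cells, at 570 CPM (553 to 586) against 466 CPM (441 to 492). Klk8, at 109 CPM (96.7 to 121) and 114 CPM (107 to 122), had overlapping intervals. The cause was not tested.

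Partners and relatives of the 10 genes, 120 in all, were also counted. Of the 55 that reached 10 CPM in either library, 0 were at least 16-fold lower, beside 0.948% of all 8859 genes. With so low a share, 55 genes are too few to show a difference from it. Of the 55, 9 were at least 2-fold lower and 5 at least 2-fold higher, where all genes gave 9.28% and 5.61%. Their median log2 ratio was -0.36. With TMM scaling, which adds 0.25 to every log2 ratio, 4 of the 55 were at least 2-fold lower and 7 at least 2-fold higher, beside 6.17% and 7.44% of all genes. In the reticulon list, Arl6ip1, which shapes tubules of the endoplasmic reticulum, went from 481 to 363 CPM, and Rtn4rl1, a relative of the Nogo receptor, from 193 to 82.8 CPM, a ratio of -1.22. In the tetraspanin list, Cd81 went from 2841 to 1737 CPM, and Cd63, which marks late endosomes, from 348 to 1117 CPM.

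The adhesion receptors of the Adgrg1 family were mixed. Adgre1, which encodes F4/80 of macrophages, went from 216 to 269 CPM, and Adgre5 (CD97) from 0.647 to 13.7 CPM. Adgrg5, a close relative that did not reach 10 CPM, had 126 WT UMIs (6.79 CPM) against 0, at least 43.0-fold lower. In the calcium channel list, Calm2, a calmodulin gene, went from 711 to 271 CPM, a ratio of -1.39, and was the only 1 of the 4 genes with 10 CPM that was at least 2-fold lower. Among relatives and partners of Dlgap1, Dynll1, a dynein light chain, was at 215 and 195 CPM, a difference that changed sign with TMM scaling (log2 ratio 0.11 instead of -0.14) and when mitochondrial and ribosomal protein genes were left out of the totals (0.0078), and Dlg3, a membrane scaffold, at 13.9 and 4.48 CPM. Collagen-modifying genes beside P3h2 gave 0 of 7 past 2-fold. These are too few genes to set against the 9.28% lower and 5.61% higher among all genes. Ppib stood at 441 and 318 CPM and Plod1, a lysyl hydroxylase, at 161 and 85.8 CPM. No kallikrein or receptor listed beside Klk8 and no relative of Csmd3 reached 10 CPM in either library. Their sums were 1.24 and 0 CPM for the first list and 1.08 and 0.421 CPM for the second, WT first, so no listed relative stood at the level of the gene that was low.

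The homeostatic microglia list, which holds genes typical of resting microglia, gave 16 of 34 genes at least 2-fold lower and 0 at least 2-fold higher. All 8859 genes gave 9.28% and 5.61%. The median log2 ratio of the list was -0.95, against -0.28 for all genes. With TMM scaling the counts were 13 and 0, beside 6.17% and 7.44% of all genes. Of the 34, 2 were at least 16-fold lower, beside 0.948% of all genes. They were Sall1 at -7.49 and Adora3, an adenosine receptor, at -6.48 (164 to 1.84 CPM). This list was drawn up with earlier results of these libraries known.

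Outside the 10 genes, and above 50 CPM in either library, the genes with the lowest ratios were Il7r, Gimap1, Sall1, A830008E24Rik and Atp8a2. Il7r, the interleukin-7 receptor, had 1423 WT UMIs against 2 (log2 ratio -9.51, -12.56 to -7.65). Gimap1, a GTPase gene of immune cells, had 962 and 0, at least 328-fold lower. A830008E24Rik had 2112 and 18, and Atp8a2, a phospholipid flippase, 2467 and 24. In the 100 Apoe-low cells Il7r gave 1 UMI against 25.3 at the WT level, Gimap1 0 against 17.1, A830008E24Rik 1 against 37.5 and Atp8a2 5 against 43.8. Gimap1 and Il7r had too few UMIs in the whole library to show more there.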

How the data were processed

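Droplet single-cell RNA sequencing measured 2 libraries, WT and the library labelled IRF8KO. The authors deposited whole-number UMI counts per gene and barcode, and the file headers give software version 3.1.0 and matrix format 2. Per the submitters' processing notes, bcl2fastq, Cell Ranger 3.1 and Scanpy were used with the build mm10. The labels' protocols also name a full-length low-input kit, but the matrices look like droplet UMI counts. Barcodes number 3504 with 18706147 UMIs in WT and 5303 with 19998075 UMIs in the other library. Depth limits what a count of 0 shows.

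Cells were kept with at least 1000 UMIs, 500 genes and at most 10% mitochondrial UMIs, which left out 200 and 198 barcodes. No doublet caller was run; an alternative dropped the cells of highest UMI count, 0.8% per 1000 cells. UMIs were summed per cell set and scaled to its total (CPM). With 1 library per group nothing was tested. Levels carry exact Poisson intervals, shares Clopper-Pearson intervals, and ratios conditional binomial intervals, at 95%. A count of 0 was set to 3 counts over the set for folds, given as bounds. Thinning drew 2000 UMIs per cell without replacement. Python 3.11.15, scipy 1.17.1 and, for TMM scaling as an alternative, edgeR 4.0.16 were used; ratios and thinning were tested on simulated data. Positions came from GENCODE M21 on GRCm38, where 30934 of 31053 feature identifiers matched, and start windows from RefSeq.

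The members and all gene lists were chosen with earlier results of these data known. Genes named are the 10 members, Sall1, Irf8 and Apoe; in each list the gene with the highest WT CPM and the one with the largest absolute log2 ratio among those with at least 10 CPM; the 5 others most correlated with the summed members; and the 5 others with the lowest ratio at 50 CPM or more. A gene that this rule would name is not reported here. Adora3, Itga8, Itgb3, Adgrg5 and the cell type markers named fall outside that rule and were picked after their values were seen. These markers are Slc17a7, Tubb3, Ms4a7, Pf4, Stab1, Folr2, Lyve1, Cd209f, Ccr2, Ttr, Slc1a3, Cd79b, Pecam1, Flt1 and Tmem119. Alternatives covered the cell filter, the neutrophil cut, scaling, weighting, pseudocount, thinning depth and the Apoe limit.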

Additional observations from a re-analysis of the deposited data

How the results depend on the processing

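All 10 genes stayed at least 16-fold lower in the library labelled IRF8KO under the 11 settings run for the fold difference, and no value changed sign. The summed log2 ratio of -5.76 became -5.51 with TMM scaling, -5.61 when mitochondrial and ribosomal protein genes were left out of the totals and -5.63 when Apoe was left out. These scalings put the median of all genes at -0.02, -0.13 and -0.14 in place of -0.28. A pseudocount of 1 CPM brought the median of the 10 genes from -9.27 to -5.57, since it exceeds most of their levels in that library. The stricter cell filter brought that median to -8.15 and Npnt from -9.86 to -7.83, and leaving out the cells of highest UMI count brought it to -8.93 and Upk1b from -10.27 to -8.35; Npnt and Upk1b then had 0 UMIs and stand at the floor of 3 counts. Of 110 values of single genes 10 moved by more than their interval, 8 of them with the pseudocount and Adgrg1 with TMM scaling and with equal weight per cell, and all lay between -11.94 and -4.29. The share of cells with any of the genes was 2.50% at 1000 UMIs, 6.38% at 3000 UMIs and 7.53% without thinning. The median r with Sall1 was 0.0858 without thinning and lay near 0 in the other settings, from -0.0056 to 0.0129. The share of remaining UMIs in Apoe-low cells was 15.8% in 100 cells in the main setting and 19.6% in 74 cells with the stricter cell filter. It was 11.5% in 36 cells with a limit of 1% Apoe and 24.4% in 485 cells with a limit of 5%, so these shares refer to sets of unlike size. The share of all genes at least 16-fold lower was 0.720% with a minimum of 50 CPM. No paired analysis was possible because each group is 1 library and the labels carry no replicate numbers. No setting could leave out a library.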
